A study of Mus musculus with 8 samples.

Results

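Tenocytes, the fibroblasts that build and maintain tendon, were examined in the embryonic mouse forelimb, among the descendants of cells that had expressed *Hic1*. They were chosen by measured transcripts of 6 marker genes in the sorted E16.5 libraries. A cell was counted as a tenocyte where it held at least 3000 unique molecular identifiers (UMIs, each marking 1 captured transcript), at most 10% of them mitochondrial, together with at least 2 UMIs of *Tnmd*, at least 1 of *Scx* and at least 1 of any of *Kera*, *Fmod*, *Thbs4* and *Mkx*. The rule found 1998 tenocytes among 19556 kept E16.5 cells and 53085 kept cells of the whole series. Of these, 1316 came from the proximal and 682 from the distal library.

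Both libraries held tdTomato+ cells of C57BL/6J embryos carrying *Hic1* CreERT2 and Rosa26 LSL-tdTomato, each labelled as homozygous, from dams gavaged with 7.5 mg of tamoxifen at embryonic day 10. CreERT2 sits in the *Hic1* locus, so the reporter marks any cell that transcribed *Hic1* while tamoxifen was present, whatever its later fate. The proximal library came from the limb around the elbow joint and the distal library from the lower forearm with the autopod, the future hand. According to the methods, forelimbs of several embryos of both sexes were pooled, and cells with blood, endothelial or macrophage surface antigens were gated out. The other sorted libraries (E11.5, E12.5, E13.5 and E14.5) and both whole E11.5 limb libraries serve here only as background for the rule. Each segment was 1 library, so the data hold no spread between replicates, no difference was tested, and all intervals are exact 95% intervals for counting error only.

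Tendon cells are marked from early stages by *Scx*, a basic helix-loop-helix transcription factor that is switched on by TGF-beta and FGF signals in the limb and binds E boxes (CANNTG) as a dimer. *Mkx* encodes a homeodomain factor needed for collagen fibril growth, and *Tnmd* a transmembrane glycoprotein that serves as the usual marker of differentiated tendon. *Fmod* and *Kera* encode small leucine-rich proteoglycans that bind collagen fibrils, and *Thbs4* a thrombospondin concentrated where muscle meets tendon. Tendon ends in muscle at the myotendinous junction and in bone at the enthesis, where cells share features with cartilage.

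The promoters of *Tnmd*, on which the rule turns, and of *Cilp* and *Htra3*, described below among the genes with the largest ratios, are shown with their E boxes because *Scx* is the factor the rule uses. Each is the 250 bases before the RefSeq transcript start (GRCm38.p6), read 5′ to 3′ on the strand of the gene, with every CANNTG in capitals. They lie at chrX:133850758-133851007 on the plus strand, at chr9:65264930-65265179 on the plus strand and at chr5:35679781-35680030 on the minus strand.
Tnmd: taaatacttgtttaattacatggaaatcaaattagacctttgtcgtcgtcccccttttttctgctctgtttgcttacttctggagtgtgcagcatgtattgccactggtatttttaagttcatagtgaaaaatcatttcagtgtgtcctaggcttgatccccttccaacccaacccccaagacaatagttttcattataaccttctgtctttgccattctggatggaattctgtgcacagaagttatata
Cilp: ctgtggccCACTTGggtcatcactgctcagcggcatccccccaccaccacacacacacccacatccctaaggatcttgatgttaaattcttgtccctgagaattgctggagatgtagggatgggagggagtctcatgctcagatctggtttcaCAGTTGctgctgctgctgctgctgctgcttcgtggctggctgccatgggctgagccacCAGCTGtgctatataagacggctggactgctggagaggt
Htra3: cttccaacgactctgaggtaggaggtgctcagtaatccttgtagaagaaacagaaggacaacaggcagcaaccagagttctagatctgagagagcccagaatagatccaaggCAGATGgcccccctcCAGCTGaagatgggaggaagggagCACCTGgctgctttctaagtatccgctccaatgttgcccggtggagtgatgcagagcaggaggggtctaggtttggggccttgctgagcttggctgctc
The *Tnmd* window held no CANNTG, and the *Cilp* and *Htra3* windows held 3 each. The motif reads the same on both strands, and 66.2% of 32851 promoter windows of this length held at least 1. A CAGATG or its reverse CATCTG was in 14.4% of the windows and a CAGCTG in 13%. These letters describe the windows and are not evidence of binding.

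The kept E16.5 cells had a median of 18473 UMIs in the proximal and 17275 in the distal library, and the tenocytes 16755 and 19438. The libraries shared 30 kept barcodes, and 1 barcode belonged to a tenocyte in both. Of the proximal cells, 864 held over 1% of their UMIs in 8 keratinocyte markers (median 39874 UMIs), against 53 distal cells. These epithelial-rich cells serve as a comparison, since keratinocytes should not express tendon genes. Whether the tendon transcripts in them came from free RNA or from doublets (more than 1 cell under a barcode) was not tested. Of the proximal ones, 4.86% had 2 or more UMIs of *Tnmd*. The whole rule was met by 22 of them (2.55%), against 0 of 53 distal ones. Those 22 proximal tenocytes carried 92.5% of all epithelial-marker UMIs of the proximal tenocytes. A single further proximal tenocyte carried 9836 of their 9876 haemoglobin UMIs.

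The rule was met by 11.8% of the proximal (11.3 to 12.5) and 8.07% of the distal cells (7.50 to 8.68). With every cell thinned to 3000 UMIs, these shares were 6.10% and 3.72%. Both ways of counting put the proximal share above the distal one, in a single library each. In the other sorted libraries the rule was met by 5 of 3165 cells at E11.5 (0.158%), 15 of 4714 at E12.5 (0.318%), 92 of 6123 at E13.5 (1.5%) and 885 of 8381 at E14.5 (10.6%, or 3.59% after thinning). The whole limb libraries held none among 5464 and 5682 cells, which allows shares of up to 0.0549% and 0.0528% by the usual limit of 3 cells, or 0.0675% and 0.0649% as exact upper bounds. The libraries up to E13.5 were shallower, with medians of 6788 to 8992 UMIs. With thinned cells, the rule was met by 0.392% of the E13.5 and 0.0212% of the E12.5 cells and by 0 of 3165 E11.5 cells (exact upper bound 0.116%). These libraries were made with an earlier kit, from which stage cannot be told apart.

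**Figure D1:**
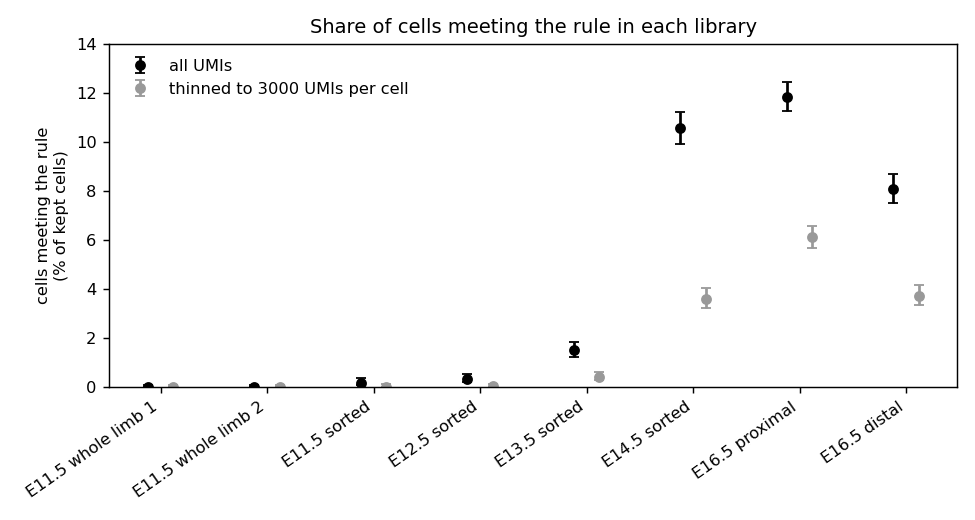
Share of kept cells meeting the tenocyte rule in each library (percent, y axis), with all UMIs in black and after thinning to 3000 UMIs per cell in grey. Bars are exact 95% intervals for counting error, and the E14.5 and both E16.5 libraries stand above 8% with all UMIs and above 3% after thinning.

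Because measured UMIs chose the cells, the levels of the 6 marker genes are a description of the choice. Levels are given as CPM, that is the UMIs of a gene summed over a set of cells and scaled to 1000000 UMIs of those cells in all. *Tnmd* was at 2482 CPM in the proximal and 2001 CPM in the distal tenocytes, with 2 to 360 UMIs per proximal cell (median 36) and 2 to 345 per distal cell (median 30). *Scx* was at 400.3 and 510.2 CPM, *Thbs4* at 440.8 and 396.8 CPM and *Mkx* at 58.2 and 86.7 CPM. *Kera* (244.0 and 414.6 CPM) and *Fmod* (299.4 and 354.3 CPM) were each missing from some tenocytes, since 1 further marker was enough. *Kera* was found in 53.2% and 61.0% of the tenocytes, *Mkx* in 51.5% and 63.6%, *Thbs4* in 79.1% and 72.3%, and *Fmod* in 83.8% and 88.7%.

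Cells on either side of the threshold are described by *Cilp* and *Htra3*, which the rule did not use. The 35 proximal and 39 distal tenocytes with exactly 2 UMIs of *Tnmd* had 17.6 and 93.0 CPM of *Cilp* and 85.0 and 135.7 CPM of *Htra3*. The 77 proximal and 77 distal cells that met everything else but had 1 UMI of *Tnmd* had 12.3 and 15.5 CPM of *Cilp* and 43.4 and 71.1 CPM of *Htra3*, of which the proximal *Htra3* level was below the 48.7 CPM of all other proximal cells. Cells without *Tnmd* that met the other conditions numbered 519 and 632, and cells that lacked only *Scx* numbered 657 and 207. The latter held 426.6 and 427.2 CPM of *Tnmd* but only 9.98 and 5.14 CPM of *Cilp*. *Tnmd* without a captured *Scx* transcript was thus common around the tenocytes, more so in the proximal library.

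The tenocytes were then set against all other kept cells of their own library, by the ratio of CPM + 1. Of 9305 genes at 5 CPM or more over all kept cells in each library, 91 (0.978%) were at least 2-fold higher in the tenocytes of both libraries and 270 (2.9%) at least 2-fold lower. These counts depend on the settings, with 176 higher genes and 419 lower ones with no minimum CPM, 421 lower ones in cells thinned to 3000 UMIs and 160 with an offset of 5 CPM. The median ratio of all genes was 1.00 in the proximal and 0.973 in the distal library.

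Genes were named for their ratio only at 50 CPM or more in the higher set of both libraries. Among these, *Cilp*, which encodes cartilage intermediate layer protein, a matrix protein that binds TGF-beta, had the largest ratio outside the rule. It was at 114.6 CPM in the proximal tenocytes (110.5 to 118.9) and 2.78 CPM in the other proximal cells (2.56 to 3.01), a ratio of 30.6. In the distal library it was at 121.5 CPM (115.9 to 127.3) against 2.02 CPM (1.80 to 2.27), a ratio of 40.5. In GRCm38 the plus strand of chromosome 9 carries *Cilp* (ENSMUSG00000042254) between 65265180 and 65280605. At least 1 *Cilp* UMI was present in 54.0% of the proximal and 52.5% of the distal tenocytes, and in 3.60% and 2.18% of the other cells. After thinning to 3000 UMIs, the shares were 22.8% and 22.3% against 0.888% and 0.476%. In the epithelial-rich proximal cells it was 3.24%, or 0.810% after thinning, and 0 of the 53 distal ones had it after thinning (exact upper bound 6.72%).

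Among collagen genes, *Col13a1*, a transmembrane collagen, was at 52.4 against 3.48 CPM in the proximal and 124.2 against 10.1 CPM in the distal library, ratios of 11.9 and 11.3. *Col25a1*, another transmembrane collagen, had ratios of 3.91 and 3.12, and *Col18a1*, a basement membrane collagen, 3.03 and 4.24. The secreted serine protease gene *Htra3* (ENSMUSG00000029096, chromosome 5 from 35652023 to 35679782, minus strand) was at 210.5 against 48.7 CPM and at 281.8 against 32.6 CPM, ratios of 4.25 and 8.42. Its thinned shares were 40.3% and 47.1% of the tenocytes and 12.7% and 8.19% of the other cells, against 2.31% of the proximal epithelial-rich cells. *Htra3* was thus present well outside the tenocytes, and *Cilp* hardly at all.

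*Scube2*, whose product releases lipid-modified hedgehog proteins, had ratios of 7.02 and 6.68, and the spondin gene *Spon2* 5.79 and 6.72. *Ssc5d*, a scavenger receptor cysteine-rich protein, had 5.15 and 5.31, and *C1qtnf3*, a C1q and TNF-related protein, 3.65 and 3.54. *Pcolce2*, an enhancer of procollagen C-proteinase, stood at 67.1 against 18.4 CPM and 89.0 against 21.7 CPM, and *Abi3bp*, a matrix protein that binds cells, at 388.6 against 119.0 CPM and 465.2 against 134.6 CPM. The homeobox gene *Meox1*, a regulator of the somites, was at 70.2 against 19.8 CPM and 62.6 against 10.5 CPM. The remaining named genes were *Zfp185* (ratios 6.43 and 14), *Fam101b* (4.0 and 3.22) and *Nnat* (5.97 and 3.10), of which *Zfp185* encodes an actin-associated LIM protein and *Fam101b* a regulator of actin filaments. Leaving out every cell with over 1% epithelial or haemoglobin UMIs (23 proximal tenocytes and 843 and 54 other cells) left all 15 named genes at least 2-fold higher in both libraries, with *Zfp185* at ratios of 13.8 and 14.8.

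**Figure D2:**
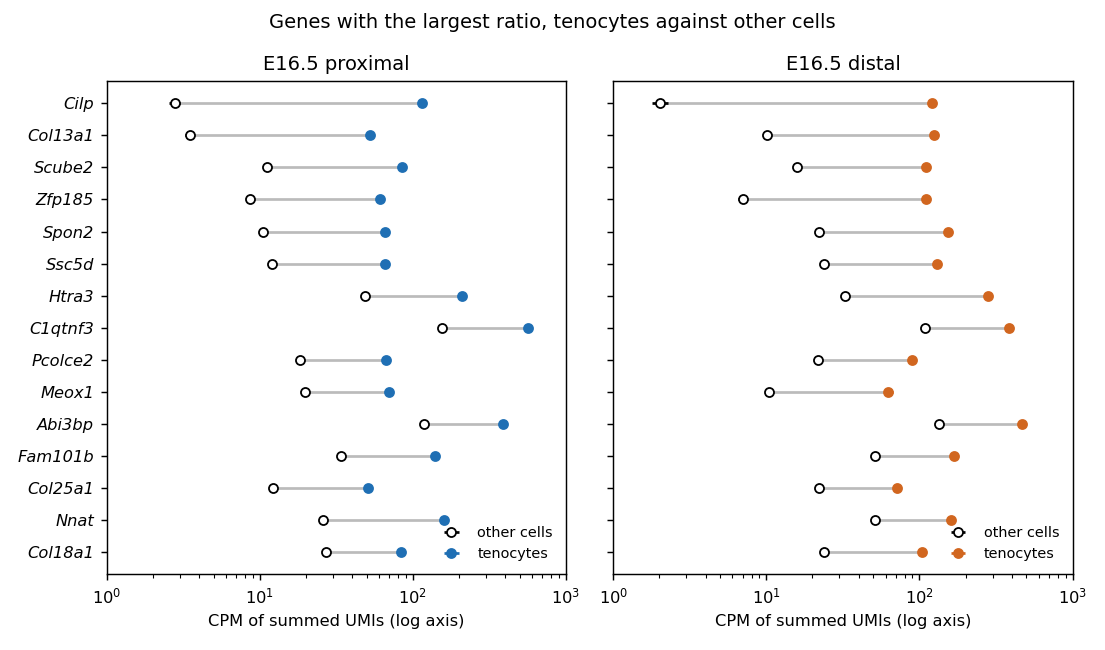
CPM of summed UMIs (x axis, log scale) of the 15 genes with the largest ratio, in other cells (open circles) and in tenocytes (filled circles) of the proximal (left) and distal library (right). Bars, mostly smaller than the points, are exact 95% Poisson intervals, and the gap is widest for Cilp in both libraries.

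The 10 named genes that were lowest in tenocytes were mostly keratinocyte genes. *Krt14*, a basal keratin, was at 62.9 against 313.2 CPM in the proximal and 4.93 against 56.1 CPM in the distal library, and *Lgals7*, *Sfn*, *BC100530*, *Stfa3*, *Dmkn*, *Calm4*, *Ly6d* and *Krt1* had ratios of 0.208 to 0.247 and 0.0331 to 0.120. Epithelial-rich cells stand beside these ratios, of which the proximal library held 842 and the distal 53 outside the tenocytes. Without those cells, 1 of the 10, *Emilin2*, remained at least 2-fold lower in both libraries. *Emilin2*, an elastin-interface glycoprotein, was at 22.4 against 92.0 CPM and 19.8 against 90.1 CPM with all cells.

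With the epithelial-rich and haemoglobin-rich cells left out, a different set of genes had the lowest ratios. *Osr2*, a zinc finger factor of loose connective tissue, was at 10.4 against 51.4 CPM and 10.8 against 55.5 CPM. *Tnxb*, which encodes tenascin X, was at 19.0 against 83.2 CPM and 11.5 against 73.2 CPM. *Zeb2* had ratios of 0.238 and 0.157 and *Clec3b* 0.243 and 0.186. *Mfap5* had 0.251 and 0.190 and *Dpt* 0.254 and 0.227, both genes of fascia and universal fibroblasts. *Col6a6*, *Arhgdib* and *Col5a3* completed this set, with ratios of 0.256 to 0.267 and 0.169 to 0.198.

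The gene lists below were chosen with earlier results of these data known. Some list genes passed 2-fold only without the epithelial-rich cells, a setting for which the share of all genes is not given here. Leaving those cells out also moved the level in the other cells, for *Dpt* from 133.2 to 156.5 CPM in the proximal library. Collagen genes as a list did not move together. Of 17 fibrillar collagens and partner collagens examined, 3 were at least 2-fold higher in both libraries (*Col12a1*, *Col13a1* and *Col18a1*) and 1 lower (*Col5a3*). These counts stand beside 0.978% and 2.9% of all genes, and the list's median ratios were 1.46 and 1.17. The proximal ratio of *Col12a1* was 1.91 without the cells over 1% epithelial or haemoglobin UMIs, which ends its call. *Col1a1*, the main chain of tendon fibrils, was at 11256 CPM in the proximal tenocytes against 4909 CPM in the other cells, and at 13195 against 7278 CPM in the distal library, ratios of 2.29 and 1.81. *Col1a2* was close to it with ratios of 2.03 and 1.73. *Col3a1*, the fibrillar collagen of loose tissue, was at 4286 against 4935 CPM and 4285 against 5873 CPM, and the *Col6a1*, *Col6a2* and *Col6a3* chains of microfibrillar collagen had ratios between 0.65 and 0.79. *Col12a1* and *Col14a1*, collagens on the fibril surface, had ratios of 2.17 and 2.12 and of 1.19 and 1.87.

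Of 20 collagen processing enzymes and chaperones, 1 (*Pcolce2*) was at least 2-fold higher in both libraries. *Pcolce*, its relative, had ratios of 1.89 and 2.27. The lysyl hydroxylase gene *Plod2* had 1.47 and 1.90, the lysyl oxidase gene *Lox* 1.43 and 1.16, and *Serpinh1*, the collagen chaperone HSP47, 1.26 in each. The 19 of 20 that did not pass 2-fold in the same direction in both libraries stand beside 0.978% of all genes called higher and 2.9% called lower.

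Small leucine-rich proteoglycans differed in direction from gene to gene. Outside the rule, none of 10 was 2-fold higher in both libraries and 1, *Lum*, was lower, beside 0.978% and 2.9% of all genes. *Lum*, which encodes lumican, was at 424.8 against 900.7 CPM and 251.5 against 1088 CPM, and *Dcn*, decorin, had ratios of 0.649 and 0.518. *Bgn*, biglycan, was at 1120 against 443.5 CPM and 1136 against 585.4 CPM, and *Ogn*, osteoglycin, at 829.0 against 408.8 CPM and 1025 against 532.4 CPM. *Aspn*, asporin, had a ratio of 2.29 in the proximal and 1.18 in the distal library. The list's median ratios were 0.606 and 0.978.

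Of 26 tendon matrix glycoproteins examined, 9 (*Thbs2*, *Fn1*, *Cilp*, *Mfap4*, *Abi3bp*, *Angptl2*, *Spon2*, *Htra1* and *Htra3*) were at least 2-fold higher in both libraries and *Mfap5* was lower. These counts stand beside 0.978% of all genes called higher and 2.9% called lower. *Cilp*, *Abi3bp*, *Spon2* and *Htra3* are also among the 15 genes named above for the largest ratios. Without the cells over 1% epithelial or haemoglobin UMIs, *Thbs2* and *Fn1* were under 2-fold in the proximal library (ratios 1.995 and 1.80) and *Fbn1* was 2-fold lower in both (0.445 and 0.434). *Fn1*, fibronectin, was at 740.1 against 360.2 CPM and 1316 against 438.1 CPM. *Mfap4*, a microfibril protein, was at 1524 against 424.0 CPM and 1396 against 511.8 CPM. *Tnc*, tenascin C, and *Tgfbi* passed 2-fold in the proximal library only, with ratios of 5.51 and 4.39 there and 1.97 and 1.37 in the distal one, where the other cells held 79.7 and 109.5 CPM of them against 16 and 26.2 CPM proximally. *Comp*, a thrombospondin of cartilage and tendon, was at 72.2 against 147.9 CPM and 46.3 against 54.1 CPM. *Ptx4*, a pentraxin, lay below the 5 CPM minimum over all cells but was at 32.4 CPM in the proximal and 41.5 CPM in the distal tenocytes, against 0.897 and 1.46 CPM.

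**Figure D3:**
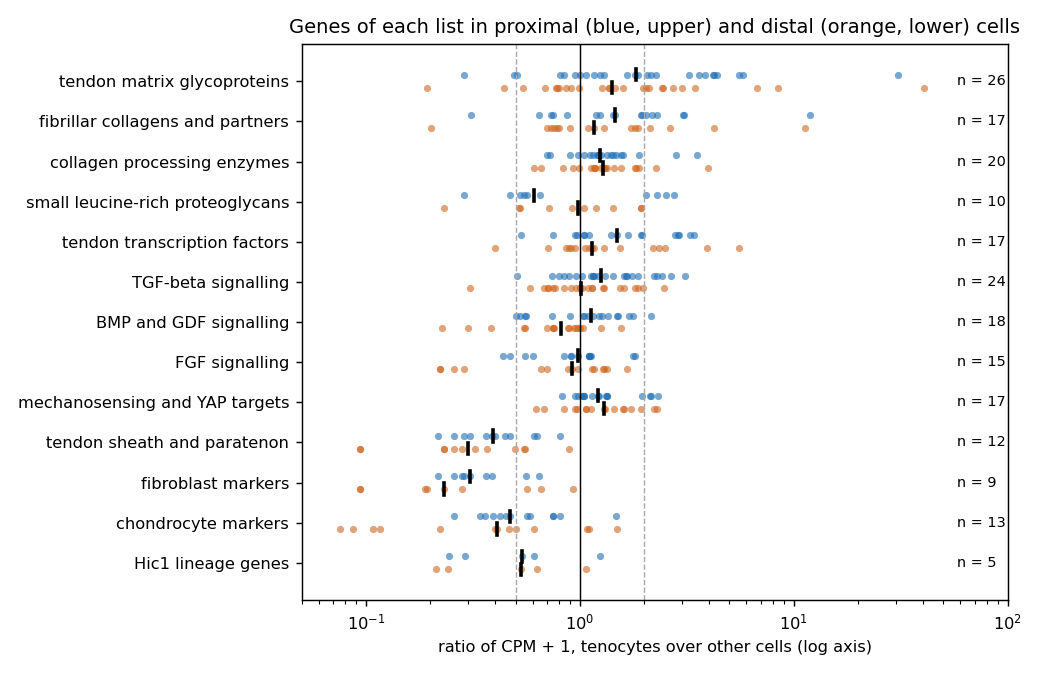
Ratio of CPM + 1 of tenocytes over other cells (x axis, log scale) for each examined gene of the lists, with proximal values in blue (upper row of each list) and distal values in orange (lower row). Black bars are list medians, dashed lines mark 2-fold, and the medians of the sheath, fibroblast and chondrocyte lists lie left of 1 while single chondrocyte genes lie right of it.

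Of 17 tendon transcription factor genes examined, 4 were at least 2-fold higher in both libraries and none was lower, beside 0.978% and 2.9% of all genes. Among them were *Six4* (ratios 3.26 and 2.19), a sine oculis homeobox factor, *Meox1*, and *Etv4* (2.86 and 3.93), an ETS factor that acts downstream of FGF signals. *Six2*, *Eya1* and *Eya2*, the last a cofactor of sine oculis homeobox factors, were below the 5 CPM minimum and had ratios of 2.37 to 3.07 in the proximal and 3.21 to 4.19 in the distal library. *Egr1*, a zinc finger factor linked to collagen expression in tendon, had ratios of 0.749 and 1.16. *Klf2* and *Klf4*, Krüppel-like factors, had ratios of 0.947 and 0.904 and of 0.529 and 0.400.

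The TGF-beta pathway, which maintains *Scx* expression, had 1 of 24 genes at least 2-fold higher in both libraries and none lower. This stands beside 0.978% of all genes called higher and 2.9% called lower. Without the epithelial-rich cells, however, *Fst* was lower (0.491 and 0.319). The higher gene was *Ltbp2*, a latent TGF-beta binding protein (29.1 against 11.4 CPM and 55.1 against 21.8 CPM). Among ligands, *Tgfb2* was at 127.2 against 56.8 CPM and 240.0 against 127.8 CPM, and *Tgfb3* at 57.5 against 20.9 CPM and 71.9 against 46.6 CPM. *Inhba*, the activin A subunit, had ratios of 3.09 and 1.96. The receptor genes *Tgfbr1* and *Tgfbr2* had ratios of 1.60 and 1.29 and of 1.13 and 0.768. *Mstn*, myostatin, a muscle growth inhibitor that also acts on tendon, was low but detected in the tenocytes at 1.46 CPM in the proximal and 9.11 CPM in the distal library, against 0.162 and 0.484 CPM in the other cells.

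Of 18 BMP and GDF pathway genes, none was 2-fold higher or lower in both libraries with all cells, beside 0.978% and 2.9% of all genes. *Gdf10* and *Nog* were among those lower in both without the epithelial-rich cells (proximal ratios of 0.490 and 0.453). *Bmp4*, which acts in the growth of bone ridges under tendons, was at 18.2 against 14.6 CPM and 48.2 against 49.4 CPM. *Gdf5*, *Gdf6* and *Gdf7*, joint and tendon ligands, were at 2.22 CPM or less in the tenocytes of either library. Of 15 FGF pathway genes, *Fgf10* and *Fgfr3* were at least 2-fold lower in both libraries, *Fgf7* too without the epithelial-rich cells (0.488 and 0.219), and none was higher. The share of all genes called lower was 2.9%. *Fgf8*, a ligand of limb and muscle-tendon signalling, was below the minimum at 8.74 against 0.587 CPM and 3.97 against 0.111 CPM. *Spry1* and *Spry2*, feedback inhibitors of FGF receptors, had ratios between 0.90 and 1.29.

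Tendon is loaded by muscle, and of 17 mechanosensing genes and YAP targets 2 were at least 2-fold higher in both libraries, beside 0.978% of all genes. *Piezo1*, a stretch-activated channel, was at 39.7 against 18.0 CPM and 58 against 24.6 CPM. *Cdh2*, N-cadherin, was at 53.7 against 24.8 CPM and 80.7 against 36.0 CPM, but its proximal ratio was 1.88 without the epithelial-rich cells. *Piezo2*, the related channel, had ratios of 2.31 and 1.74, and *Ctgf*, a YAP target, 1.95 and 1.93. *Itga2* and *Itga11*, collagen receptor chains, were below the minimum, with ratios of 3.81 and 5.76 and of 2.94 and 2.67.

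Of 9 myotendinous junction genes examined, 4 (*Thbs4*, *Cilp*, *Scube2* and *Chodl*) were at least 2-fold higher in both libraries, where the share of all genes was 0.978%. *Thbs4* is a marker of the rule, so its ratio follows from the choice of cells and is no result. *Cilp* and *Scube2* are also among the 15 genes named above for the largest ratios, and the list was chosen with earlier results known. *Nefm*, a neurofilament gene on the list, was 2-fold lower in both without the epithelial-rich cells (0.470 and 0.357). *Chodl*, a membrane C-type lectin, was at 138.7 against 19.1 CPM and 136.6 against 57.2 CPM. *Col22a1*, a collagen known from the myotendinous junction (ENSMUSG00000079022, chromosome 15 from 71795795 to 72034227, minus strand), was below the minimum over all cells. It stood at 24.6 against 0.663 CPM in the proximal and 35.7 against 2.14 CPM in the distal library. *Calca*, the calcitonin peptide gene, was at 36.6 against 1.20 CPM and 11.3 against 2.00 CPM. Muscle fibre genes themselves stayed low, with 68.1 CPM summed over 14 genes in the proximal tenocytes (112.8 in the other cells) and 21.0 CPM in the distal ones (36.3).

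The lists of the sheath and of neighbouring fibroblasts are read against the 2.9% of all genes called lower. Of 12 sheath and paratenon genes examined, 8 were at least 2-fold lower in both libraries, among them *Tppp3* (21.6 against 78.3 CPM and 65.3 against 205.2 CPM), *Has2*, a hyaluronan synthase, and *Cd34*. The fibroblast list, which shares *Cd34*, *Dpt*, *Pi16* and *Ly6a* with the sheath list, had 6 of 9 lower, with *Dpt* at 39.9 against 133.2 CPM and 33.2 against 147.4 CPM and *Pi16* at 2.85 against 13.9 CPM and 2.81 against 39.5 CPM. Dermal fibroblast markers had 5 of 8 lower, pericyte markers 5 of 7 and perineurial markers 2 of 3, and none of these lists had a gene 2-fold higher in both libraries. Without the epithelial-rich cells, the perineurial gene *Wnt6* was no longer 2-fold lower (0.517 and 0.525). The other 4 examined genes of the sheath list were neither 2-fold higher nor 2-fold lower in both libraries. *Prg4*, lubricin, also on that list, lay below the minimum, with ratios of 3.44 and 2.38.

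Of 13 chondrocyte markers, 7 were at least 2-fold lower in both libraries and none higher, beside 2.9% of all genes called lower. *Col2a1*, the main cartilage collagen, was at 841.5 against 1876 CPM and 202.0 against 504.7 CPM. Its thinned share was 36.1% of the proximal and 29.9% of the distal tenocytes, against 17.1% and 10.4% of the other cells and 5.90% of the proximal epithelial-rich cells. A larger share of the tenocytes than of the other cells thus held some *Col2a1*, while the summed level was lower in the tenocytes. Cells with over 1% chondrocyte-marker UMIs numbered 67 among the proximal tenocytes and carried 67.5% of their chondrocyte-marker UMIs, against 2 among the distal ones. The other cells held 866 and 261 such cells, which enter the level that the tenocytes are set against. *Sox9*, the cartilage and tendon-bone factor, was at 94.6 against 127.2 CPM and 38.5 against 84.1 CPM. Of 9 enthesis and fibrocartilage genes 1, *Col2a1*, was lower in both libraries and none higher, beside the same 2.9%.

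*Hic1* was at 12 CPM in the proximal tenocytes against 23.2 CPM in the other cells, and at 15 against 29.2 CPM in the distal library, ratios of 0.538 and 0.531. At least 1 *Hic1* UMI was found in 17.7% and 23.3% of the tenocytes and in 31.3% and 33.3% of the other cells, and after thinning in 3.72% and 3.52% against 6.23% and 7.82%. The proximal epithelial-rich cells, at a median of 39874 UMIs, had it in 5.09%, or 0.116% after thinning, below the tenocytes by either measure. The reporter was found in 99.9% and 99.4% of the tenocytes. *Osr1* and *Osr2*, odd-skipped factors of connective tissue, were the 2 of 5 genes that were at least 2-fold lower in both libraries, beside 2.9% of all genes. *Osr1* was at 14 against 50.7 CPM and 7.61 against 34.5 CPM. *Tcf7l2*, a factor of muscle connective tissue, had ratios of 0.607 and 0.627. Of the osteoblast, muscle fibre, haemoglobin and proliferation genes, 3, 3, 2 and 10 reached the 5 CPM minimum. None of these was 2-fold higher or lower in both libraries, beside 0.978% and 2.9% of all genes. No glial or endothelial marker reached the minimum. Without the epithelial-rich cells, the muscle genes *Tnnt1* and *Mylpf* were 2-fold lower in both (proximal ratios of 0.467 and 0.488). Of the 8 osteoblast genes listed, *Runx2* was at 15 and 4.25 CPM in the proximal and distal tenocytes, *Phex* at 9.65 and 17.7 CPM, *Alpl* at 9.46 and 2.88 CPM and *Spp1* at 9.18 and 1.85 CPM, and *Sp7*, *Ibsp*, *Bglap* and *Dmp1* were below 1.5 CPM in both.

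Within the tenocytes, the genes whose log CPM followed that of *Tnmd* over cells most closely were *Abi3bp* (Pearson r of 0.37 over 1316 proximal and 0.48 over 682 distal cells), *Mtch1* (0.36 and 0.36), *Col1a1* (0.36 and 0.42), *Olfml2b* (0.35 and 0.40), *Htra3* (0.52 and 0.34) and *Ssc5d* (0.34 and 0.37). The most negative values belonged to *Gpc3*, a glypican (-0.45 in each), *Vcan*, versican (-0.38 and -0.42), *Plagl1* (-0.43 and -0.31), *Fbln2* (-0.36 and -0.33), *Mfap5* (-0.34 and -0.32) and *Klf4* (-0.32 and -0.32). The cells share their library and vary in depth, so these values describe the cells and carry no test.

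Cells with *Col22a1* formed a small part of the tenocytes. At least 2 UMIs of it were held by 143 proximal (10.9%, 9.24 to 12.7) and 90 distal tenocytes (13.2%, 10.7 to 16), against 0.184% and 0.773% of the other cells. The proximal epithelial-rich cells had it in 0.347%. The cells of this split differed in depth, with medians of 20472 and 24630 UMIs in the cells with *Col22a1* and 16245 and 18920 in those without, and the shares after thinning were 1.06% and 2.20%. *Cilp* was at 256.2 against 92.1 CPM and 259.3 against 94.5 CPM, *Ptx4* at 69.0 against 26.6 CPM and 82.8 against 33.4 CPM, and *Ngfr*, the low-affinity nerve growth factor receptor, at 98.1 against 37.2 CPM and 91.2 against 39.3 CPM. *Kctd12b*, *Insc* and *Col18a1* had ratios between 2.12 and 2.48. In the other direction *Comp* had ratios of 0.201 and 0.0552, *Eln*, elastin, 0.330 and 0.337, *Col14a1* 0.360 and 0.383 and *Sox9* 0.255 and 0.415. *Scx*, a marker of the rule, was higher beside *Col22a1*, at 570.5 against 373.2 CPM and 783.9 against 456.6 CPM.

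*Sox9* was found in 488 proximal (37.1%) and 222 distal tenocytes (32.6%), close to its share in the other cells of 39.4% and 31.6%. After thinning, the shares were 16.3% and 9.82% in the tenocytes and 16.7% and 13% in the other cells. The part of free RNA in these calls was not tested. Of the 12 other chondrocyte markers, all were higher with *Sox9* in the proximal library, and in the distal library all but *Col11a2* (45.4 against 67.8 CPM, beside 164.9 against 38.5 CPM proximally). The 67 proximal tenocytes with over 1% chondrocyte-marker UMIs, which held 67.5% of those UMIs, and the 17 epithelial-rich cells among the proximal tenocytes with *Sox9* stand beside these values, and their part in them was not tested. *Hapln1*, a hyaluronan link protein, was at 129.6 against 6.02 CPM and 55.1 against 10.1 CPM, *Acan*, aggrecan, at 195.9 against 26.3 CPM and 112.5 against 31.6 CPM, and *Comp* at 159.8 against 9.82 CPM and 82.1 against 26.8 CPM. *Col9a3*, *Col9a2* and *Igfbp7* completed the named genes, with ratios of 2.27 to 15.7 and 2.27 to 4.80. *Sox5*, a cofactor of SOX9, had ratios of 3.67 and 3.03. *Cilp2* also had a higher level with *Sox9* (2.05 and 1.79), while *Col13a1* was lower (0.456 and 0.543).

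Cycling genes were found in both libraries. At least 3 of 10 proliferation genes were detected in 449 proximal (34.1%, 31.6 to 36.8) and 190 distal tenocytes (27.9%, 24.5 to 31.4), against 34% and 20% of the other cells. After thinning, the shares were 17.4% and 16.9% against 16% and 10.5%. Depth differed here too, with medians of 22480 and 26848 UMIs in these cells and 15023 and 18130 in the rest, and free RNA was not tested for these either. The named genes were the histone gene *Hist1h1b* (602.3 against 6.20 CPM and 1185 against 8.15 CPM) and the mitotic genes *Nusap1*, *Hmmr*, *Kif11*, *Ccna2* and *Esco2*, with ratios of 38.4 or more in both libraries. *Kera* stood at 155.8 against 312.9 CPM and 347.2 against 454.1 CPM, lower in the cells with proliferation genes. As *Kera* is a marker of the rule and the sides differed in depth, the part of the choice of cells in this was not tested.

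Clustering of the 1998 tenocytes on their own gave 10 groups, which are left unnamed and identified by their leading genes. Since the groups were made from these counts, their genes are a description. Group 1 (459 cells, 337 proximal and 122 distal) was led by *Prph*, *Ecscr*, *Kctd12b*, *Ptx4* and *Col22a1*. Within the proximal library its *Thbs4* level was 753.0 against 358.9 CPM in the other tenocytes and its *Cilp* level 204.8 against 91.0 CPM, and within the distal library 860.0 against 304.7 CPM and 242.1 against 97.5 CPM. Group 2 (311 cells, 196 and 115) was led by histone and mitotic genes. Group 6 (193 cells, 148 and 45) was led by *Pcolce2*, *C1qtnf3*, *Chst5* and *Prss35* and had the highest *Tnmd* level of the 10 groups, 6491 CPM, with 6780 CPM in its proximal and 5683 CPM in its distal cells. In group 6 the *Col1a1* level was 22026 CPM, *Kera* 983.4 CPM and *Tnc* 33.0 CPM, against 11065, 245.8 and 124.2 CPM in the other tenocytes.

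Groups 3, 4, 5, 7 and 8 were each nearly all from a single library. Group 3 (282 cells, 262 proximal) was led by *Mfap5*, *Clec3b* and *Smoc2* and had 200.1 CPM of *Scx* against 482.2 CPM in the other tenocytes. Group 5 (193 cells, 190 proximal) was led by *Matn1*, *Cytl1* and *Col9a1*, with *Sox9* at 488.6 against 36.1 CPM and 69 cells over 1% chondrocyte-marker UMIs. Group 7 (140 cells, 132 proximal) had *Alpl*, *Omd*, *Dlx5* and *Runx2*, genes known from bone-forming cells, among its leading genes and had 23.2 CPM of *Kera* against 321.3 CPM. Group 4 (229 cells, 219 distal) had *Adgrg2*, *Tppp3*, *Fos* and *Egr1* among its leading genes. It had 280.2 CPM of *Egr1* against 69.5 CPM in the other tenocytes and 15.3 CPM of *Cilp* against 129.7 CPM. Group 8 (138 cells, 136 distal) was led by *Hoxd13*, *Kcna1*, *Il1rap* and *Itga4*. With 1 library per segment, a group from 1 library cannot be told apart from that library.

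Groups 9 and 10 were small and deeply sequenced. Group 10 (25 cells, all proximal) was led by the keratinocyte genes *Calm4*, *Lce3f* and *Krtdap* and held all 22 epithelial-rich tenocytes. It had a median of 44404 UMIs and a *Tnmd* level of 1134 CPM. Group 9 (28 cells, 14 from each library) was led by *a* (the agouti gene), *Col7a1*, *Irx1*, *Bcl11b* and *Twist2*, genes of the dermis, had a median of 29506 UMIs, and 85.7% of its cells were among the highest 8% of doublet scores of their library. Over all tenocytes that share was 13.7% in the proximal and 16.4% in the distal library, against 7.06% and 7.19% of the other cells. It was 60% in group 10, 29.8% in group 3, 20.6% in group 2, 18.8% in group 4, 17.1% in group 5 and 1.04% to 5.07% in groups 1, 6, 7 and 8. The part of doublets in these groups was not tested. At a coarser and a finer clustering (7 and 13 groups), the cells that group 2 shared with its best match were 92.4% and 95.4% of the cells in either, and group 10 was found whole at both. In the coarser and the finer one the share was 73.7% and 54.0% for group 1, 52.1% and 55.0% for group 3, 56.6% and 95.3% for group 4, 76.7% and 73.6% for group 5, 76.7% and 87.2% for group 6, 23.5% and 97.9% for group 7, 34.8% and 100% for group 8 and 6.44% and 87.5% for group 9. Groups 1 and 3 were thus matched in part at both settings, and groups 4, 7, 8 and 9 mainly at the finer one.

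**Figure D4:**
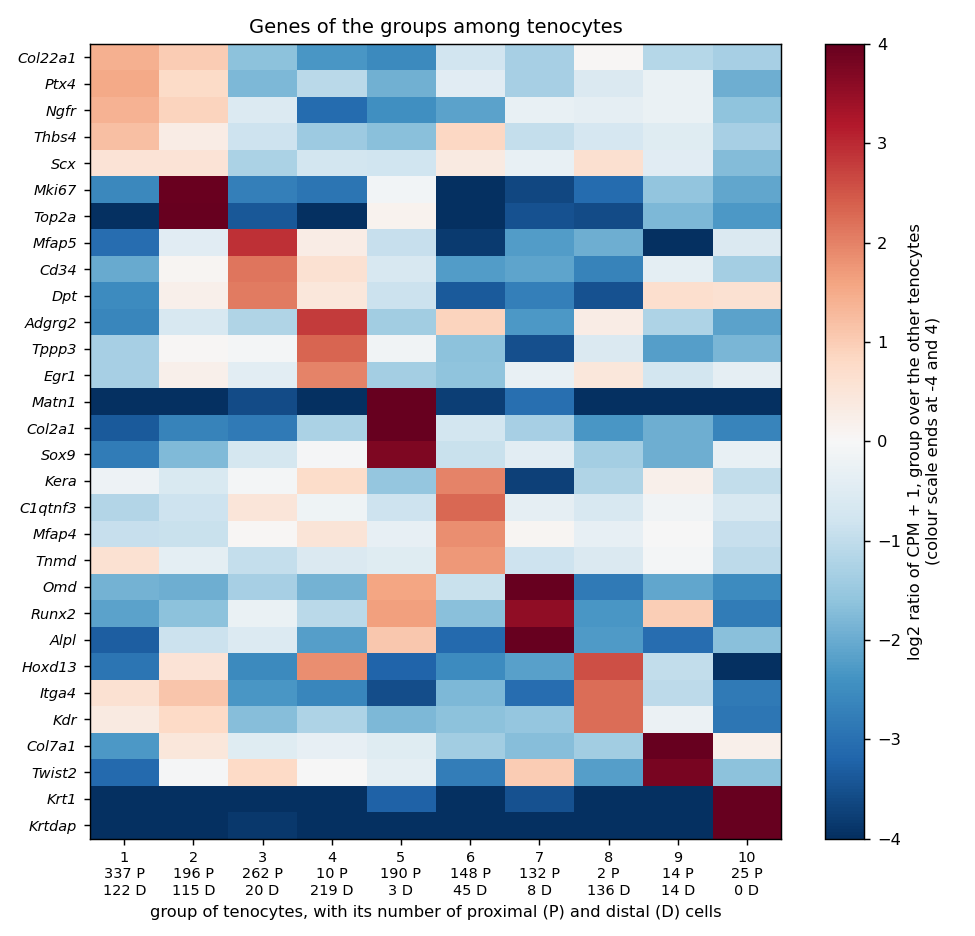
Log2 ratio of CPM + 1 of each group of tenocytes over all other tenocytes (colour) for genes that lead or describe the groups (rows), with the proximal (P) and distal (D) cells of each group under the columns. The colour scale is capped at both ends, and Tnmd is reddest in group 6.

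Tenocytes of the distal and the proximal segment were compared last, beside the same ratio in the other cells of the same libraries. Of the 9305 genes, 136 (1.46%) were at least 2-fold higher and 191 (2.05%) at least 2-fold lower in the distal tenocytes. These counts were 440 and 426 in cells thinned to 3000 UMIs, 81 and 121 with an offset of 5 CPM and 330 and 506 with no minimum CPM. Of the 327 genes (136 and 191), 213 differed at least 2-fold in the same direction in the other cells, and 15 lay on the opposite side of 1. The matching shares over all 9305 genes are not given here, so these 2 counts cannot be called high or low. The median ratio of all genes was 1.04 in the tenocytes and 1.09 in the other cells. For 170 of the 9305 genes, the ratio in tenocytes differed from that in the other cells by over 2-fold. The proximal matrix was counted with Cell Ranger 3.0.2 and the distal one with 6.0.1, so that segment, library and counting version cannot be told apart.

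Autopod Hox genes were higher and Meis genes lower in the distal library, in tenocytes as in other cells. *Hoxd13*, a Hox gene of the autopod (chromosome 2 from 74668310 to 74671599 in GRCm38), was at 2.14 CPM in proximal and 65.3 CPM in distal tenocytes, and at 1.64 and 79.1 CPM in the other cells. *Hoxa13* was at 0.277 and 22.9 CPM, against 0.448 and 32.0 CPM. *Hoxa11*, a Hox gene of the forearm, was at 12.7 and 32.5 CPM, and *Hoxd11* at 38.9 and 83.9 CPM. *Meis2*, a proximal limb factor, was at 25.3 and 3.63 CPM in tenocytes and 35.2 and 9.39 CPM in the other cells, and *Meis1* at 10.3 and 1.23 CPM, against 11.8 and 4.38 CPM. *Shox2*, a factor of the upper arm skeleton, had a distal over proximal ratio of 0.539 in tenocytes and 0.731 in the other cells. *Tbx3* (0.471 in tenocytes and 1.23 in the other cells), *Hoxa9* (0.853 and 1.32) and *Hoxa10* (0.702 and 1.35) lay below 1 in tenocytes and above 1 in the other cells.

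**Figure D5:**
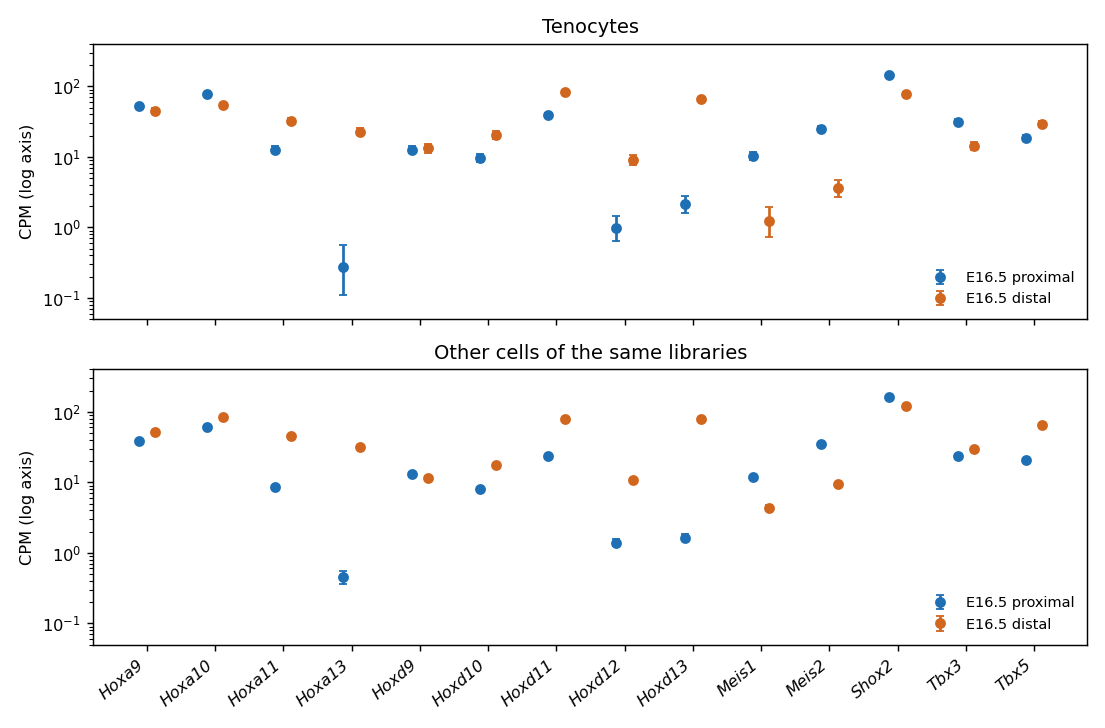
CPM (y axis, log scale) of Hox and limb position genes in tenocytes (top) and in the other cells (bottom) of the proximal (blue) and distal library (orange), with exact 95% Poisson intervals as bars. Hoxa13, Hoxd12 and Hoxd13 were higher and Meis1 and Meis2 lower in the distal library, in tenocytes and in the other cells alike.

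The other named genes that were higher in distal tenocytes were *Egr1* (39.2 and 185.0 CPM, a ratio of 4.63 beside 2.98 in the other cells), *Adgrg2*, an adhesion receptor (12.9 and 60.2 CPM, 4.42 beside 5.0), *Hist1h2ap* (4.12 beside 4.29), *Rpl29* (49.5 beside 38.2), *Gm10076* (10.2 beside 9.07), *Spag7* (6.70 beside 5.95) and *Gm42418* (4.05 beside 4.28). *Rpl29*, *Hist1h2ap* and the *Gm* genes can share reads with near-identical copies or repeats, and the counting version differed between the libraries, so their values are uncertain. The ratio in tenocytes was within 1.5 times that of the other cells for all of these but *Egr1*, and for *Egr1* it was 4.84 beside 4.0 without the epithelial-rich and haemoglobin-rich cells. *Kdr*, an endothelial receptor gene below the 5 CPM minimum, was at 5.62 and 22.9 CPM in proximal and distal tenocytes and 1.48 and 2.54 CPM in the other cells. Its ratio of tenocytes over other cells was 2.67 in the proximal and 6.76 in the distal library. Of the other endothelial genes listed, *Pecam1* was at 3.32 and 6.30 CPM in tenocytes and 5.47 and 4.71 CPM in the other cells, and *Cdh5* and *Emcn* were at 0.40 CPM or less in tenocytes.

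Among the genes that were lower in distal tenocytes, *Calm4*, *Krtdap*, *Sprr1a*, *Lor*, *Serpinb2*, *Ly6d* and *Asprv1* are keratinocyte genes, with 80.5 to 594.5 CPM in the proximal tenocytes. Their ratios were 0.00667 to 0.0190 in tenocytes and 0.0369 to 0.0862 in the other cells. Without the 22 epithelial-rich and the haemoglobin-rich proximal tenocytes, their proximal levels were 8.27 to 27.7 CPM. *Matn1*, a cartilage matrilin, was at 143.6 CPM in proximal and 1.85 CPM in distal tenocytes, a ratio of 0.0197 beside 0.0673 in the other cells. With those cells left out the lowest ratios belonged to *Matn1* (0.0188), the pseudogene-like *Gm3550* and *Gm10263*, and the cartilage genes *Lect1* (0.0896), *Col9a1* (0.0967), *Col9a3* (0.111) and *Col9a2* (0.225), with *Itm2a* (0.211). In the other cells the ratio was 0.0580 for *Matn1*, 0.296 for *Lect1*, 0.277 for *Col9a1*, 0.213 for *Col9a3*, 0.237 for *Col9a2* and 0.286 for *Itm2a*. Of 13 chondrocyte markers, 9 were at least 2-fold lower in distal tenocytes, beside 2.05% of all genes. The median distal over proximal ratio of these markers was 0.241 in tenocytes and 0.343 in the other cells. The 67 proximal and 2 distal tenocytes with over 1% of their UMIs in these markers stand beside the difference between the segments. Without all cells over that share, 172 genes were at least 2-fold lower in distal tenocytes instead of 191, and the log2 ratio of *Matn1* was -2.83 instead of -5.66.

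Between the segments, the tendon lists are read against the 1.46% of all genes that were 2-fold higher and the 2.05% that were 2-fold lower in distal tenocytes. No transcription factor of 17 was 2-fold lower and 2, *Egr1* and *Foxp1* (a ratio of 2.21 beside 3.26 in the other cells), were higher in distal tenocytes. Of 17 collagens 1 (*Col13a1*, a ratio of 2.34 beside 2.48 in the other cells) and of 26 matrix glycoproteins 1 (*Spon2*, 2.32 beside 2.00) were higher, and *Matn4* was lower (0.408 beside 0.608). *Nefm*, of 9 myotendinous junction genes, was higher (3.69 beside 5.42). *Omd* and *Epyc*, proteoglycans of bone and cartilage, were lower in distal tenocytes at 18.2 and 5.14 CPM (0.319 beside 0.959) and at 34.7 and 10.9 CPM (0.334 beside 0.0920). *Fst*, follistatin, was the 1 of 24 TGF-beta genes past 2-fold, at 84.1 and 23.6 CPM (0.289 beside 0.477). Of 15 FGF pathway genes, the feedback inhibitors *Spry2* (2.09 beside 1.67) and *Spry4* (2.89 beside 1.81) were higher and the receptors *Fgfr2* (0.391 beside 1.24) and *Fgfr3* (0.423 beside 0.713) lower. Groups 3 and 7, nearly all proximal, stand beside *Fst*, a leading gene of group 3, and *Omd* (143.3 CPM in group 7, 6.65 in the other tenocytes). Proximal tenocytes with *Sox9* held more *Epyc* (73.8 against 6.84 CPM), *Matn4* (204.5 against 28.8), *Fgfr2* (24.1 against 9.21) and *Fgfr3* (9.90 against 2.23). Distally *Epyc* was lower with *Sox9* (9.90 against 11.4 CPM). The part of these cells in the segment values was not tested. Of 18 BMP and GDF genes, *Bmp4* (ratio 2.56 beside 3.23 in the other cells) and *Bmpr2*, a receptor (2.02 beside 2.25), were higher. Of 17 mechanosensing genes 3 were higher, one of them *Itga5*, a fibronectin receptor chain (2.16 beside 2.51). *Ctgf* (25.5 and 72.0 CPM) and *Cyr61* (57.8 and 117.2 CPM), both YAP targets, were the others, with ratios of 2.75 and 2.01 beside 2.78 and 2.13 in the other cells. Without the epithelial-rich and haemoglobin-rich cells, *Bmpr2* and *Cyr61* were just under 2-fold (1.987 and 1.994) and *Dusp6*, an FGF feedback phosphatase, was just over it (2.01).

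The 885 E14.5 cells that met the rule give the same genes at an earlier stage, in 1 library. Their *Tnmd* level was 1384 CPM and their *Scx* level 473.3 CPM. *Cilp* was at 19.2 CPM (0.995 in the other E14.5 cells) and *Col22a1* at 4.73 CPM (0.666), below both E16.5 sets. *Col1a1* was at 5659 CPM and *Col14a1* at 96.6 CPM, against 11256 and 575.6 CPM in the proximal E16.5 tenocytes. *Htra3* was at 289.3 CPM and *Col13a1* at 67.8 CPM, against 210.5 and 281.8 CPM and 52.4 and 124.2 CPM in the proximal and distal E16.5 tenocytes. Stage, part of the limb and library cannot be told apart in these values.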

How the data were processed

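Single-cell RNA sequencing (10x Genomics 3′) was analysed from 8 libraries. The deposited matrices are unnormalised UMI counts by gene and barcode, made by the authors with Cell Ranger against mm10 with added transgene sequences. Per the file headers the version was 3.0.2 for the sorted libraries and 6.0.1 for the distal E16.5 library, and the whole limb headers name none. Cells with at least 3000 UMIs and at most 10% mitochondrial UMIs were kept, and groups came from the sample labels. Counts were summed over tenocytes and over the other cells of each library and compared as the ratio of CPM + 1, for genes at 5 CPM or more over all kept cells of each library. Each segment had 1 library, so no test was run, and a gene was counted where its ratio passed 2-fold. Intervals are exact (Clopper-Pearson for shares, Poisson for levels), at 95%, and cover counting error only. Depth was equalised, where stated, by thinning each cell to 3000 UMIs.

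The named genes were those at 50 CPM or more in the higher set: the 15 highest and 10 lowest by the weaker library's ratio, 8 each way between segments, 6 per split, 6 each way for likeness to *Tnmd*, and the genes of the lists. The rule's 6 markers, and genes that are transgenic, mitochondrial, sex-linked or encode haemoglobin did not enter the ranked sets. The members and the gene lists were chosen with earlier results of these data known. Tenocytes were grouped with scanpy 1.11.5 (2000 variable genes chosen across libraries, 30 components, 20 neighbours, Leiden resolution 0.6, igraph 0.11.9) in Python 3.11.15, with numpy 2.4.6, scipy 1.17.1 and pandas 2.3.3. The scripts were tested on simulated data. Doublets were scored with Scrublet, whose own threshold called 1 proximal and 0 distal cells and so did not work here, and the highest 8% of scores were used instead. Gene positions are from GENCODE on GRCm38, and promoters from RefSeq on GRCm38.p6, where 6 of 9 genes asked for had an entry. Some genes are not reported here.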

Additional observations from a re-analysis of the deposited data

Results flagged for a closer look

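The ratio of tenocytes over other cells lay on opposite sides of 1 in the 2 libraries, by at least 1.5-fold on each side and with counting intervals that did not reach 1, for 3 genes, and the difference was not tested. The haemoglobin gene *Hba-a1* was at 47.2 against 8.04 CPM in the proximal and 0.274 against 15.6 CPM in the distal library, so that its ratios differed 69.7-fold. *Hbb-bs* was at 219.4 against 30.9 CPM and 0.343 against 42.5 CPM, a 223.8-fold difference. A single proximal tenocyte held 9836 of the 9876 haemoglobin UMIs, and without the cells over 1% epithelial or haemoglobin UMIs the ratios were 1.02 and 0.746 for *Hba-a1* and 0.769 and 0.601 for *Hbb-bs*. *Runx2*, a bone transcription factor, was at 15 against 7.49 CPM in the proximal and 4.25 against 14.2 CPM in the distal library, a 5.47-fold difference between ratios of 1.89 and 0.345. Its proximal level stands beside group 7 of the tenocytes, 140 cells of which 132 were proximal and in which *Runx2* was a leading gene.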

How the results depend on the processing

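No paired analysis was possible because each segment was 1 library. No library was left out for the same reason. The top 8% of doublet scores and the cells with over 1% epithelial, haemoglobin or chondrocyte UMIs were left out as alternatives chosen after seeing the data.

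The proximal and distal shares of tenocytes were 6.10% and 3.72% with every cell thinned to 3000 UMIs, 9.77% and 7.08% with 2 further markers required, 12.5% and 8.99% with *Tnmd* at 1 UMI, and 11.1% and 7.33% without the top doublet scores. They were 13.1% and 8.06% without cells holding at least 2 epithelial markers and 12.6% and 8.13% without cells over 1% epithelial or haemoglobin UMIs. In each of these settings the proximal share was above the distal one.

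The counts of genes past 2-fold moved by over 1.5 times in these settings. Thinning gave 421 genes lower in tenocytes, 440 higher in distal and 426 lower in distal tenocytes. An offset of 5 CPM gave 160, 81 and 121. With no minimum CPM, 176 genes were higher and 419 lower in tenocytes, and 330 higher and 506 lower in distal tenocytes. Leaving out tenocytes with at least 3 chondrocyte markers gave 239 genes higher in distal tenocytes. The cause was not tested.

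The proximal and distal shares with *Col22a1* were 1.18% and 2.87% when thinned before the rule and 19.5% and 25.2% at 1 UMI. With *Sox9* they were 12.2% and 7.01% when thinned and 23.8% and 16.9% at 2 UMIs. With proliferation genes they were 15.9% and 16.2% when thinned, 48.2% and 41.2% at 2 genes, and 30.4% and 23.5% without the top doublet scores.

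Of 574 values of 41 named entries under the alternatives, 564 kept their direction and 233 moved by more than the 95% counting interval. *Calm4* and *Ly6d* each make 2 of these entries, being named both against other cells and between segments. The 10 others were keratinocyte genes named as lower, with these log2 ratios in the weaker library. Without cells holding at least 2 epithelial markers, *Krt14* was at 0.40, *Sfn* at 0.15, *BC100530* at 0.0275, *Dmkn* at 0.0310, *Calm4* at 0.0442 and *Krt1* at 0.0827. Without cells over 1% epithelial or haemoglobin UMIs, *Stfa3* was at 0.0345, *Calm4* at 0.21, *Ly6d* at 0.0034 and *Krt1* at 0.17.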
